A study of Mus musculus with 10 samples.

Results

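The 10 genes described here belong to bone morphogenetic protein (BMP) signalling, and were chosen by name from the 18381 genes in the deposited table. They comprised 3 ligand genes (Bmp2, Bmp4 and Bmp7), 1 receptor gene (Bmpr1a), 3 genes of extracellular antagonists or modulators (Sostdc1, Nog and Bmper) and 3 target genes (Id1, Id2 and Id3). All 10 were among the 14504 genes with enough reads to be tested.

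The series asked how insulin-like growth factor 1 (IGF1), a secreted growth factor, changes gene expression in the developing mouse molar. First lower molars of wild type C57BL/6JOlaHsd embryos at embryonic day 14 (E14) were kept in hanging drop culture for 6 h, 1 tooth of each embryo in medium with mouse recombinant IGF1 at 750 ng/ml and the other in medium with the same volume of vehicle (PBS with BSA). Each of 5 embryos, numbered 1, 2, 3, 4 and 6 in the labels, gave 1 tooth to each group, with right and left sides balanced, and RNA of each tooth was sequenced separately. Both groups were cultured explants, so no uncultured tooth, other dose or other time enters the comparison.

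BMP ligands bind pairs of type I and type II receptors, which phosphorylate receptor Smad proteins. These act with Smad4 on target genes, among which the Id genes are a common readout. Secreted antagonists bind the ligands and keep them from the receptors. In the tooth germ, BMPs pass between epithelium and mesenchyme and are known for their part in the enamel knot, the epithelial signalling centre of the cap stage.

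Deposited read counts per tooth summed to between 2845773 and 8403151 in the control group (median 6899838) and between 3456634 and 8763113 in the IGF1 group (median 7080190), with embryo 1 the shallowest in both. Levels are given as CPM, that is read counts scaled to the size of the library, and adjusted between teeth with the trimmed mean of M-values (TMM). Changes are log2 fold changes of IGF1 over control from edgeR's quasi-likelihood test with embryo as a block, and a gene was called when its adjusted p (Benjamini-Hochberg, over all 14504 genes tested) was under 0.05. The test called 11.5% of all genes, 6.72% higher and 4.76% lower with IGF1, and the median log2 fold change of all genes was -0.0038. The samples were whole tooth germs, so fewer cells of a type and less RNA per cell cannot be told apart.

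Of the 10 BMP genes, Sostdc1 and Bmp2 fell with IGF1 and 0 rose, which is 2 of 10 lower where 4.76% of all genes tested were called lower. At an unadjusted p under 0.05 the edgeR test had 0 of the 10 higher and 3 lower, where 14.3% of all genes tested were higher and 12.2% lower. Among adjusted calls DESeq2 had 0 higher and 1 lower and limma-voom 0 higher and 2 lower. The median log2 fold change of the 10 genes was -0.08, with 8 below 0. Sostdc1 was the single member whose groups did not overlap, where 3.03% of all genes tested had every IGF1 tooth below every control tooth. No member had every IGF1 tooth above every control tooth, a pattern of 4.21% of all genes tested.

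**Figure D1:**
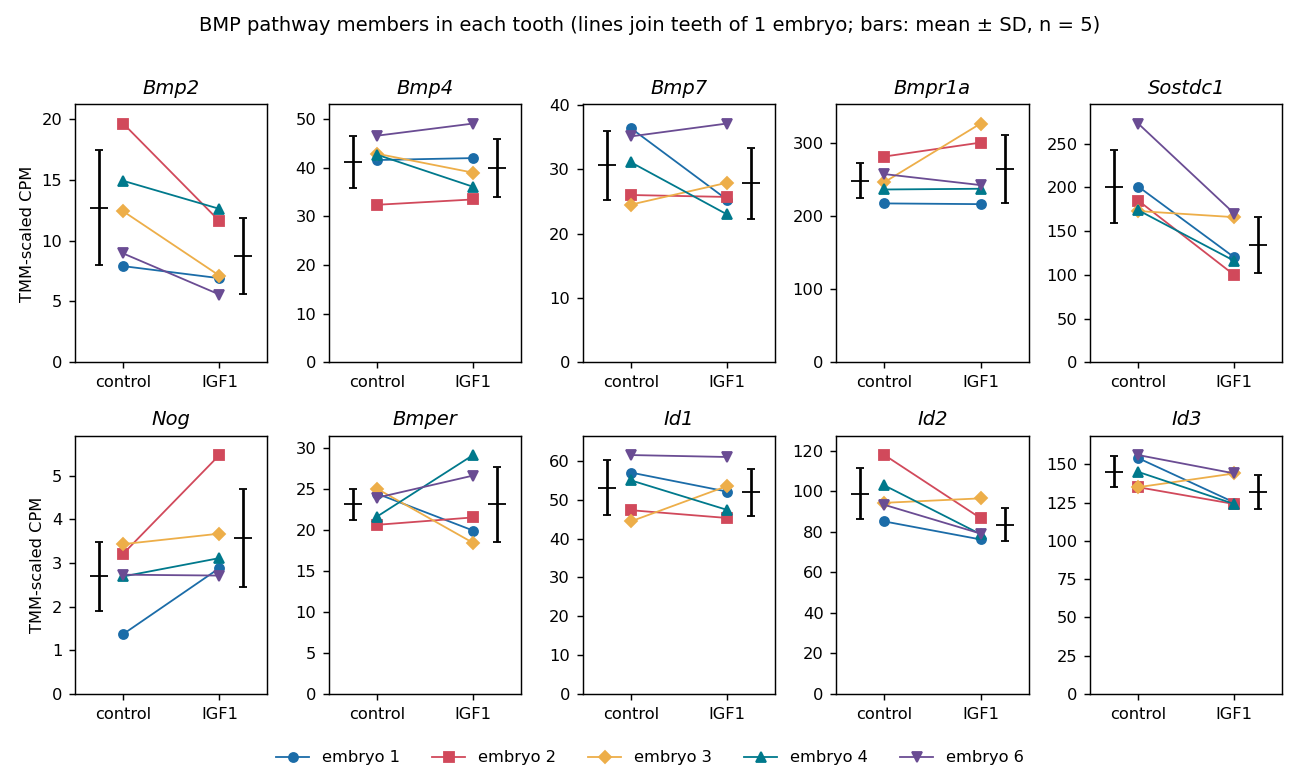
TMM-scaled CPM (vertical axes, from 0) of the 10 BMP genes in each control and IGF1 tooth, with lines joining the teeth of 1 embryo and black bars giving mean ± SD (n = 5). The lines of Sostdc1 and Bmp2 slope downwards in all 5 embryos, whereas the other 8 genes have embryos moving in both directions.

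Among the ligands, Bmp2 fell and the values of Bmp4 and Bmp7 stayed within intervals that include 0. Bmp2 is expressed in the enamel knot of the tooth and also drives bone formation. It lies on chromosome 2 from 133552159 to 133562885 (GRCm38, plus strand, ENSMUSG00000027358). In embryos 1, 2, 3, 4 and 6, Bmp2 stood at 7.90, 19.6, 12.4, 14.9 and 8.94 CPM in the control teeth, and at 6.91, 11.6, 7.12, 12.6 and 5.57 CPM in the IGF1 teeth. The IGF1 tooth was the lower of its pair in 5 of 5 embryos, as were those of 11.2% of all genes tested, although the groups overlapped because embryos differed in their control level. Bmp2 had only 23 to 134 reads per tooth. In embryo 1 the control tooth had 23 reads and the IGF1 tooth 24, so that pair was lower only after scaling to library size. The means were 12.7 ± 4.73 CPM and 8.76 ± 3.13 CPM (SD, n = 5 each). The log2 fold change was -0.56 (SE 0.152, edgeR adjusted p = 0.0367), a change of -32.2% with a 95% interval from -46.2% to -14.5%. This call was close to the threshold. It was lost without the embryo block (log2 fold change -0.55, edgeR adjusted p = 0.294), with DESeq2 (adjusted p = 0.116), and without embryo 2 (0.127), embryo 3 (0.0999), embryo 4 (0.0532) or embryo 6 (0.105), and was kept without embryo 1 (0.0448).

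Bmp4, which had the highest level per length of the 3 ligands, is made in both dental tissues and induces Msx1 in the mesenchyme. It lies on chromosome 14 from 46383520 to 46390669 (minus strand, ENSMUSG00000021835). Control teeth of embryos 1, 2, 3, 4 and 6 held 41.6, 32.4, 42.9, 42.7 and 46.6 CPM, and the IGF1 teeth 42.0, 33.5, 39.0, 36.1 and 49.1 CPM. Thus 3 embryos were slightly higher and 2 lower, and each pair differed less than the embryos did among themselves. The log2 fold change was -0.05, with a 95% interval from -0.24 to 0.13 (edgeR adjusted p = 0.75). Bmp7, a ligand that also forms heterodimers with other BMPs (chromosome 2, 172868012 to 172940321, minus strand, ENSMUSG00000008999), ranged from 24.5 to 36.4 CPM in control teeth and from 23.0 to 37.1 CPM in IGF1 teeth. Its per-embryo log2 ratio ran from -0.52 in embryo 1 to 0.19 in embryo 3, and the fitted change was -0.12 (95% interval -0.38 to 0.14, edgeR adjusted p = 0.573). The interval of Bmp7 therefore leaves room for a larger fall than that of Bmp4 (-0.38 against -0.24). Upwards both leave room for a small rise only (0.14 and 0.13).

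The change of Bmp2 was below that of Bmp4 in 5 of 5 embryos, by -0.47 on the log2 scale (SD 0.35). It was below that of Bmp7 in 3 of 5 embryos (mean difference -0.38, SD 0.59). In an exact two-sided sign-flip permutation test, 5 embryos allow no p below 0.0625, which is the value for Bmp2 against Bmp4 (0.141 after Benjamini-Hochberg adjustment over 9 pairs of genes of the same role). For Bmp2 against Bmp7 the exact permutation p was 0.25, and for Bmp4 against Bmp7 it was 0.625.

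Bmpr1a encodes a type I receptor of the BMPs and lies on chromosome 14 from 34410734 to 34503341 (minus strand, ENSMUSG00000021796). Its levels in control teeth of embryos 1, 2, 3, 4 and 6 were 217, 281, 246, 236 and 257 CPM, against 216, 300, 326, 237 and 242 CPM in IGF1 teeth. Embryo 3 had the largest difference, a log2 ratio of 0.40, and the others lay between -0.09 and 0.09. The fitted change was 0.08 (SE 0.0784, 95% interval -0.09 to 0.26, edgeR adjusted p = 0.552), and without embryo 3 it was -0.0041. Genes annotated on the opposite strand overlap Bmp4 (Gm15217 and Gm15222) and Bmpr1a (Gm17110). None of these had counts in the table, and whether the counting used strand is not given in the sources used here.

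Among the antagonists, Sostdc1 fell, with the lowest fitted log2 fold change of the 10 genes in the main fit, while Nog and Bmper were not called. Bmp2 was below Sostdc1 without embryo 1 (-0.61 against -0.55) and without embryo 4 (-0.65 against -0.59), and limma-voom gave -0.58 for both. Sostdc1 (also known as ectodin or wise) encodes a secreted inhibitor of BMPs that also binds Wnt co-receptors, and mice without it have altered molar cusps and extra teeth. The gene lies on chromosome 12 from 36314139 to 36318452 (plus strand, ENSMUSG00000036169). The control teeth of embryos 1, 2, 3, 4 and 6 held 201, 185, 173, 174 and 273 CPM, and the IGF1 teeth 120, 99.8, 166, 116 and 170 CPM. Every IGF1 tooth lay below every control tooth, but the gap was narrow, since the IGF1 tooth of embryo 6 at 170 CPM came close to the control tooth of embryo 3 at 173 CPM. The log2 ratio of the pair was -0.75, -0.89, -0.59 and -0.68 in embryos 1, 2, 4 and 6, and -0.06 in embryo 3. From 201 ± 41.7 CPM to 134 ± 31.8 CPM (SD, n = 5 each), the log2 fold change was -0.59 (SE 0.106, edgeR adjusted p = 0.00518), or -33.6% with a 95% interval from -43.5% to -21.8%. The change was larger without embryo 3 (-0.73, edgeR adjusted p = 0.00029). Without the embryo block the size was the same within 0.01 (-0.58), and the adjusted p was 0.053.

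Nog encodes Noggin, a secreted antagonist that binds BMP ligands directly, and lies on chromosome 11 from 89300638 to 89302332 (minus strand, ENSMUSG00000048616). It was the lowest of the 10 genes, with 4 to 46 reads per tooth. Control teeth of embryos 1, 2, 3, 4 and 6 were at 1.37, 3.21, 3.43, 2.69 and 2.73 CPM, and IGF1 teeth at 2.88, 5.47, 3.67, 3.11 and 2.71 CPM. The IGF1 tooth was the higher one in 4 of 5 embryos, and the groups overlapped. The log2 ratio was largest in embryo 1 (0.93), but on only 4 control and 10 IGF1 reads. It was 0.71 in embryo 2, on 22 and 46 reads. The log2 fold change was 0.36 with a wide 95% interval from -0.21 to 0.94 (edgeR adjusted p = 0.421).

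Bmper encodes a secreted protein with chordin-like repeats that binds BMPs and can either inhibit or aid them (chromosome 9, 23223076 to 23485200, plus strand, ENSMUSG00000031963). Its control teeth averaged 23.1 ± 1.92 CPM and its IGF1 teeth 23.1 ± 4.56 CPM (SD, n = 5 each), with a wider spread under IGF1. The pairs went in both directions, from -0.44 in embryo 3 to 0.43 in embryo 4, and the fitted change was -0.0058 (95% interval -0.30 to 0.29, edgeR adjusted p = 0.984). The change of Sostdc1 was below that of Nog in 5 of 5 embryos (mean log2 difference -0.98, SD 0.65, exact permutation p = 0.0625, adjusted 0.141) and below that of Bmper in 4 of 5 (-0.57, SD 0.58, exact permutation p = 0.125, adjusted 0.225). Nog and Bmper differed by 0.40 (SD 0.61) with an exact permutation p of 0.25.

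**Figure D2:**
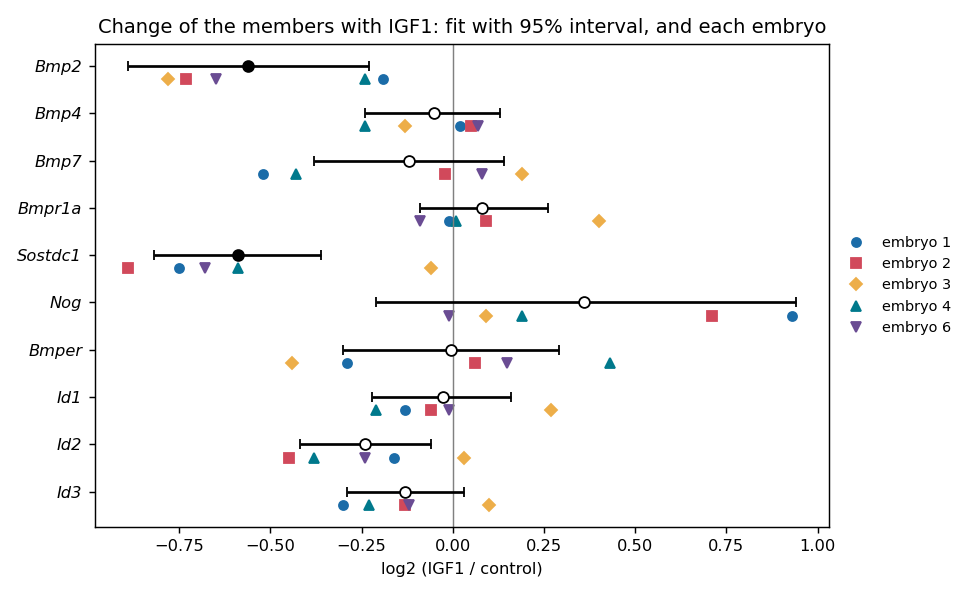
Log2 ratio of IGF1 over control (horizontal axis) for the 10 BMP genes. Circles with bars are the edgeR fold change with its 95% interval, filled where the adjusted p is under 0.05, and coloured marks below are the 5 embryos. The intervals of Sostdc1 (-0.82 to -0.36) and Bmp2 (-0.89 to -0.23) lie below 0, and embryo 3 is at the right-hand end for Sostdc1, Bmp7, Bmpr1a, Id1, Id2 and Id3.

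Id1, Id2 and Id3 encode helix-loop-helix proteins without a DNA-binding region, which pair with E proteins and keep them from DNA. None of the 3 genes passed the adjusted threshold, in edgeR, DESeq2 or limma-voom, and Id2 had the lowest values relative to control. At an unadjusted p under 0.05 the edgeR test had 1 of them lower, which was Id2, and 0 higher, where 12.2% of all genes tested were lower and 14.3% higher. Their positions are chromosome 2, 152736251 to 152737410 for Id1 (plus strand, ENSMUSG00000042745), chromosome 12, 25093799 to 25097140 for Id2 (minus strand, ENSMUSG00000020644) and chromosome 4, 136143497 to 136145755 for Id3 (plus strand, ENSMUSG00000007872).

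Bases before the RefSeq start are shown for Id2 and Bmpr1a, which hold a GC-rich element of the kind that BMP Smads are known to act on near Id genes, and for Bmp4, which holds the core of a hypoxia response element. RefSeq sequences (GRCm38.p6) of the 250 bases before the RefSeq start matched 5 of the 10 genes (Bmp4, Bmpr1a, Bmper, Id2 and Id3), and those of the other 5 are not used here. The RefSeq starts of Id2 (25096092) and Bmpr1a (34502546) lie inside the GENCODE spans given above, which hold transcripts that start further upstream, so these 2 stretches are upstream of the RefSeq start only. The Bmp4 window begins at the end of its GENCODE span. Only stretches outside every GENCODE exon are printed, 5′ to 3′, all on the minus strand: chr12:25096254-25096342 for Id2, chr14:34502688-34502796 for Bmpr1a and chr14:46390670-46390919 for Bmp4. Capitals mark matches on either strand to GGCGCC (the GC-rich element), CAGCTG (an E-box), ACGTG (the hypoxia response core) and GTCTG (the Smad box, reading CAGAC on the other strand).
Id2: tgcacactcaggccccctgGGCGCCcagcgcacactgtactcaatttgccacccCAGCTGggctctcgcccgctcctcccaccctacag
Bmpr1a: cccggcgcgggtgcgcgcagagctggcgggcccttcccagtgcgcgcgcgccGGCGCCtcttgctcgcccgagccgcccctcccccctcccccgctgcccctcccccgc
Bmp4: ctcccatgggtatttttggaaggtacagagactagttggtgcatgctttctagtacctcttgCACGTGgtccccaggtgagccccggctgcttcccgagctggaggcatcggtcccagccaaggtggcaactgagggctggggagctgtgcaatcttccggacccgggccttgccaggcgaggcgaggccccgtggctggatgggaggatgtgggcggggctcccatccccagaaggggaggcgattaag
In the whole windows, GGCGCC was found in Id2, 231 bases before its RefSeq start, and in Bmpr1a, 198 bases before its RefSeq start, against 9.59% of all 32851 promoter windows. CAGCTG was found in Id2 (13.0% of all windows), ACGTG in Bmp4 (16.6%), and GTCTG at 2 places in Id3 (42.2%). All 250 bases of the Id3 window lie in a GENCODE exon, so those 2 matches are in exon sequence by that annotation. GGCGCC and CAGCTG read the same on both strands, and ACGTG in Bmp4 lies within CACGTG, which matches on both strands and is also an E-box. The windows of these 5 genes held 62.8% to 78.8% G and C, and the median over all windows was 52.4%. A match is only a run of letters and was not tested for binding.

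Id2 in the control teeth of embryos 1, 2, 3, 4 and 6 stood at 85.2, 118, 94.4, 103 and 93.4 CPM, and in the IGF1 teeth at 76.3, 86.8, 96.6, 78.9 and 79.2 CPM. In 4 of 5 embryos the IGF1 tooth was lower, and embryo 3 was level (log2 ratio 0.03). The log2 fold change was -0.24 (SE 0.0831, 95% interval -0.42 to -0.06, edgeR adjusted p = 0.0896), and it passed the threshold without embryo 3 (-0.32, edgeR adjusted p = 0.0345).

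Id3 held 154, 135, 135, 145 and 156 CPM in control teeth of the same embryos and 125, 124, 144, 124 and 144 CPM in IGF1 teeth. Again embryo 3 was the 1 embryo with the higher IGF1 tooth. The log2 fold change was -0.13 (95% interval -0.29 to 0.03, edgeR adjusted p = 0.288). Id1 held 57.0, 47.3, 44.4, 55.0 and 61.5 CPM in control and 52.1, 45.3, 53.5, 47.4 and 61.0 CPM in IGF1 teeth, so that embryo 3 once more was higher (log2 ratio 0.27) and the other 4 lower by between -0.21 and -0.01. The log2 fold change of Id1 was -0.026 (95% interval -0.22 to 0.16, edgeR adjusted p = 0.891). Within each embryo Id1 kept above the others in its ratio. It exceeded that of Id2 in 5 of 5 embryos (mean difference 0.21, SD 0.13) and that of Id3 in 5 of 5 (0.10, SD 0.07), each with the smallest exact permutation p that 5 embryos give (0.0625, adjusted 0.141). Id2 and Id3 differed by -0.10 (SD 0.17, exact permutation p = 0.25).

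The levels of the 10 genes spanned a wide range when set per kilobase (kb) of annotated exon. In control teeth, Sostdc1 led with 113 ± 23.4 CPM per kb, followed by Id3 with 80.9 ± 5.65. Id1 (45.7 ± 6.07), Id2 (40.5 ± 5.15) and Bmpr1a (39.0 ± 3.75) formed a middle group. The control ranges of Id1 and Id2, and those of Id2 and Bmpr1a, overlapped, so their order is not resolved. The ligands were lower per kb, Bmp4 at 18.3 ± 2.35, Bmp7 at 7.62 ± 1.33 and Bmp2 at 3.58 ± 1.33 CPM per kb. Bmper was at 4.78 ± 0.397 and Nog at 1.59 ± 0.471 CPM per kb. Bmper and Bmp2 overlapped, with Bmper the higher in 4 of 5 control teeth, and all other neighbours in this order kept separate ranges. With IGF1, Sostdc1 averaged 75.4 and Id3 73.7 CPM per kb.

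**Figure D3:**
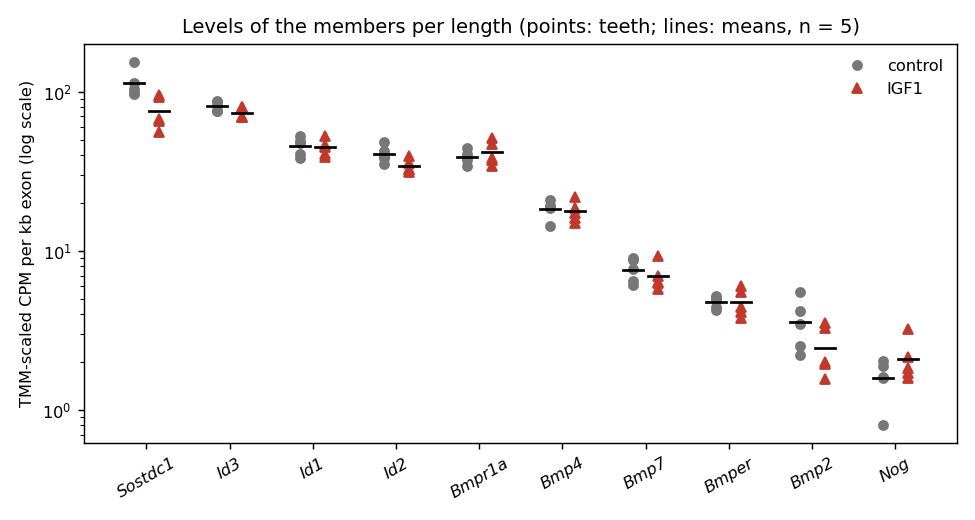
TMM-scaled CPM per kb of exon (vertical axis, log scale) of the 10 BMP genes, ordered by control mean. Points are single teeth (grey circles control, red triangles IGF1) and black lines are means (n = 5). Sostdc1 has the highest control mean at 113 CPM per kb and Nog the lowest at 1.59.

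Other genes of the pathway were taken from a list of 56, of which 54 were in the table and 47 were tested. Of the 47, 10 fell (21.3%, against 4.76% of all genes tested), 0 rose and 37 were not called, with a median log2 fold change of -0.15 and 36 values below 0. The unadjusted edgeR test at p under 0.05 had 2 higher and 13 lower (14.3% and 12.2% of all genes tested), while adjusted calls numbered 0 higher and 8 lower with DESeq2, and 0 higher and 10 lower with limma-voom. The number lower was 4 without the embryo block, 5 without embryo 1, 4 without embryo 4 and 5 without embryo 6. In the same fits the number of all genes called lower also dropped, from 691 to 331 (2.28%), 456 (3.14%), 383 (2.64%) and 399 (2.74%).

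Antagonists and extracellular modulators held most of these calls, with 7 of 17 tested lower, 0 higher and a median of -0.26. That is 41.2% lower, against 4.76% of all genes tested. The same test at an unadjusted p under 0.05 had 7 lower and 1 higher, where 12.2% of all genes tested were lower and 14.3% higher. Both DESeq2 and limma-voom called 7 lower and 0 higher. Nbl1, the founding member of the DAN family, fell from 30.6 ± 5.43 to 20.3 ± 5.15 CPM (log2 fold change -0.62, SE 0.108, edgeR adjusted p = 0.00438), lower in 5 of 5 embryos. Not all of the 7 act against BMPs. Tll1, a metalloprotease of the tolloid group that cleaves Chordin and so frees ligand, fell from 28.7 ± 7.31 to 19.0 ± 5.08 CPM (-0.63, SE 0.128, edgeR adjusted p = 0.0099). Bambi, a pseudoreceptor without a kinase domain that is itself induced by BMPs, fell from 33.0 ± 4.59 to 24.3 ± 2.38 CPM without overlap (-0.44, SE 0.106, edgeR adjusted p = 0.0238).

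Fst, Crim1 and Twsg1 were also called lower. Fst encodes Follistatin, which binds activins and some BMPs, and went from 71.0 ± 11.0 to 52.4 ± 8.22 CPM (-0.44, edgeR adjusted p = 0.0365), with 4 of 5 embryos lower and embryo 3 at a log2 ratio of 0.04. Crim1, a transmembrane protein that binds BMPs in the producing cell, went from 87.3 ± 6.99 to 70.4 ± 5.26 CPM without overlap (-0.31, edgeR adjusted p = 0.0136). Twsg1, a Chordin partner with both inhibiting and aiding roles, went from 292 ± 12.1 to 243 ± 28.3 CPM (-0.27, edgeR adjusted p = 0.029). Fstl1, a secreted glycoprotein and the most abundant of these genes in CPM, was at 671 ± 25.7 and 620 ± 65.9 CPM (-0.12, edgeR adjusted p = 0.297). The 7 calls became 2 without the embryo block, 4 without embryo 1, 3 without embryo 4 and 4 without embryo 6. Fst was not called without the block (edgeR adjusted p = 0.0677) or without embryo 1 (0.0875), embryo 2 (0.108), embryo 4 (0.08) or embryo 6 (0.124), nor was Twsg1 (0.0963, 0.11, 0.0711, 0.102 and 0.1 in the same order). Bambi was not called without embryo 1 (0.0645), embryo 4 (0.0991) or embryo 6 (0.066), and Crim1 without the block (0.0513) or embryo 4 (0.0508). Nbl1 and Tll1 were called in every fit leaving out an embryo but not without the block (adjusted p = 0.053 and 0.115).

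**Figure D4:**
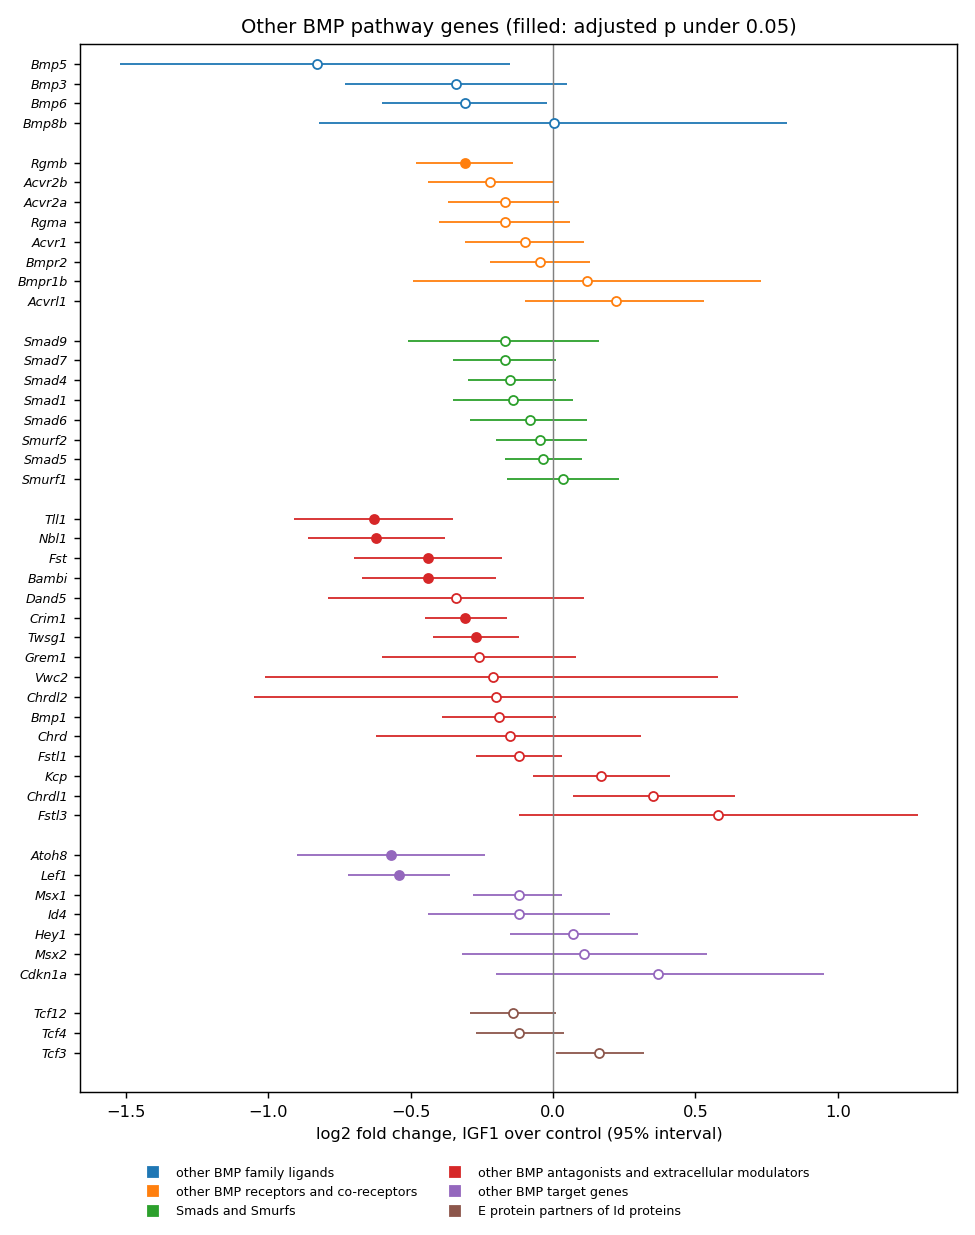
Log2 fold change of IGF1 over control (horizontal axis) with 95% intervals for 46 tested pathway genes outside the 10, coloured by role, with filled points where the edgeR adjusted p is under 0.05. The 9 filled points are all left of 0, and 6 of them are antagonists or extracellular modulators.

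Of the 8 other receptor and co-receptor genes tested, Rgmb fell (12.5%, against 4.76% of all genes tested) and 7 were not called. Rgmb encodes a membrane-anchored BMP co-receptor of the repulsive guidance family. It stood at 64.9, 62.1, 58.0, 64.1 and 60.4 CPM in control teeth and at 50.4, 44.7, 51.6, 52.8 and 49.5 CPM in IGF1 teeth of embryos 1, 2, 3, 4 and 6. These values did not overlap and were tight within groups, although the change was small (-0.31, SE 0.0761, edgeR adjusted p = 0.0234). It was not called without embryo 1 (adjusted p = 0.0746), embryo 2 (0.0762), embryo 4 (0.0708) or embryo 6 (0.0676), nor with DESeq2 (0.055). Bmpr2, the main type II receptor of BMPs, was at 403 ± 72.7 and 389 ± 61.6 CPM (-0.046, edgeR adjusted p = 0.762). Acvr2a, a type II receptor shared with activins, was at 65.9 ± 12.2 and 58.3 ± 9.95 CPM (-0.17, edgeR adjusted p = 0.245).

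None of the 8 Smad and Smurf genes tested was called in either direction by edgeR, DESeq2 or limma-voom, and 0 had an unadjusted edgeR p under 0.05. Their median was -0.11, with values from -0.17 to 0.04. Smad5, a receptor Smad of the BMP branch, was at 292 ± 10.5 and 285 ± 18.2 CPM (-0.035, edgeR adjusted p = 0.769), and Smurf2, a ubiquitin ligase that acts on Smads and receptors, at 148 ± 14.4 and 143 ± 13.6 CPM (-0.044, edgeR adjusted p = 0.752). Likewise 0 of 4 other ligand genes tested was called by the 3 tools. At an unadjusted edgeR p under 0.05, 2 were lower and 0 higher, against 12.2% and 14.3% of all genes tested. Bmp6 was at 32.4 ± 8.76 and 25.4 ± 2.57 CPM (-0.31, edgeR adjusted p = 0.164, and 0.0477 without embryo 2), and Bmp3, which lacks the usual BMP activity, at 31.6 ± 7.65 and 25.1 ± 5.77 CPM (-0.34, edgeR adjusted p = 0.25).

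Among 7 other target genes tested, Lef1 and Atoh8 fell (28.6%, against 4.76% of all genes tested), and 5 were not called. Lef1 encodes a nuclear partner of beta-catenin and is also a known target of Wnt signalling. Its control teeth held 107, 119, 111, 110 and 152 CPM and its IGF1 teeth 86.7, 69.1, 85.2, 71.7 and 102 CPM in embryos 1, 2, 3, 4 and 6. The groups did not overlap, and the log2 fold change of -0.54 (SE 0.082, edgeR adjusted p = 0.00219) was called in every alternative fit. Atoh8, a helix-loop-helix factor induced by BMPs, was much lower in level. It fell from 13.1 ± 2.58 to 8.77 ± 1.78 CPM (-0.57, SE 0.149, edgeR adjusted p = 0.0318), a call that was lost without embryo 1 (0.0756), embryo 3 (0.0635), embryo 4 (0.115) or embryo 6 (0.0775), without the block (0.0936) and with DESeq2 (0.0929). Msx1, the homeobox gene of dental mesenchyme that BMP4 induces, was at 264 ± 25.8 and 243 ± 27.4 CPM (-0.12, edgeR adjusted p = 0.285). The 3 E protein genes, whose products pair with Id proteins, had 0 calls with each of the 3 tools, and 1 was higher at an unadjusted edgeR p under 0.05. Tcf12 was at 471 ± 46.6 and 425 ± 31.6 CPM (-0.14, edgeR adjusted p = 0.208), and Tcf4 at 446 ± 42.4 and 411 ± 31.1 CPM (-0.12, edgeR adjusted p = 0.338).

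Markers of the tissues and cells of the tooth germ were measured beside these genes. Summed levels cover all genes of a list that are in the table, including those too low to be tested. Counts for each list stand against 6.72% of all genes tested called higher and 4.76% called lower. At an unadjusted edgeR p under 0.05 these shares were 14.3% and 12.2%. Of 12 dental epithelium genes 1 was higher (Krt5, 0.43) and 0 lower, with 3 higher and 1 lower at an unadjusted edgeR p under 0.05, and 1 higher and 0 lower with DESeq2 and with limma-voom. They had summed levels of 1650 to 2430 CPM in control and 1970 to 2570 CPM in IGF1 teeth. Of 8 enamel knot genes, Shh fell (log2 fold change -1.31, edgeR adjusted p = 0.000645) and Slit1 rose (0.94, edgeR adjusted p = 0.0228), 7 of 8 values were below 0, and the sums went from 65.5 to 102 CPM in control to 40.2 to 73.2 CPM in IGF1 teeth, lower in 5 of 5 embryos. In 5 of 5 embryos Sostdc1, Bmp2 and the enamel knot sum were thus all lower with IGF1, while the epithelial sum was lower in 1 of 5. Abundant genes weigh most in such sums, here Shh (means 35.4 CPM in control and 14.8 CPM in IGF1 teeth) and Krt5 (775 and 1030 CPM). The median log2 ratio over the epithelial genes was -0.02, 0.20, 0.36, -0.13 and 0.24 in embryos 1, 2, 3, 4 and 6. That over the enamel knot genes ran from -1.47 to -0.26. At an unadjusted edgeR p under 0.05 the enamel knot list had 6 lower and 1 higher, and its adjusted calls were 1 lower and 1 higher with DESeq2 and 2 lower and 1 higher with limma-voom. Whole tooth germs do not show which cells expressed Bmp2 or Sostdc1, and nothing measured here places Sostdc1 in the enamel knot. The part of the enamel knot in the values of Bmp2 and Sostdc1 was not tested.

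Of 12 dental mesenchyme genes 2 fell (Pdgfra, -0.53, and Vim, -0.42) and 0 rose. Their sums were 7040 to 9220 CPM in control and 6450 to 9060 CPM in IGF1 teeth, lower in 4 of 5 embryos. Of 9 endothelial genes 2 fell (Cdh5, -0.38, and Esam, -0.42), with sums of 413 to 471 and 332 to 438 CPM, lower in 5 of 5 embryos. Of 8 macrophage genes tested 1 fell (Csf1r, -0.44), with sums over 9 genes of 61.3 to 87.7 and 55.1 to 84.4 CPM, lower in 4 of 5 embryos. At an unadjusted edgeR p under 0.05 (12.2% of all genes tested lower) the mesenchyme, endothelium and macrophage lists had 5, 5 and 1 genes lower. Adjusted calls lower numbered 3, 1 and 0 with DESeq2 and 3, 2 and 1 with limma-voom, so that the macrophage call was lost with DESeq2. These 3 lists had 0 higher in each of these tests. Their part in the lower values of Id2, Rgmb, Crim1 and Twsg1 was not tested.

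All 5 red blood cell genes tested fell (median -0.52; sums over 6 genes 842 to 1410 and 598 to 1100 CPM), of which Hba-a1 and Hba-a2 are near-identical copies whose reads the counting could split. All 9 hypoxia response genes tested rose (median 1.69; sums over 10 genes 270 to 515 and 572 to 2530 CPM), with median log2 ratios of 0.51, 2.92, 2.69, 1.15 and 1.14 in embryos 1, 2, 3, 4 and 6. Embryos 2 and 3, which had the highest hypoxia values, had the lowest and the highest log2 ratio of Sostdc1 (-0.89 and -0.06). For Bmp2 the same embryos had the lowest pair of ratios (-0.73 and -0.78), with embryo 6 close to them (-0.65). Embryo 4, whose hypoxia median was near that of embryo 6 (1.15 and 1.14), had a Bmp2 ratio of -0.24. The part of hypoxia in the values of Sostdc1 and Bmp2 was not tested. Schwann cell and glia genes (2 tested; sums over 6 genes 73.8 to 96.5 and 69.8 to 80.8 CPM), bone lineage genes (5 tested; sums over 5 genes 148 to 932 and 119 to 1250 CPM) and skeletal muscle genes (1 tested; sums over 4 genes 2.57 to 11.1 and 0.918 to 20.2 CPM) had 0 calls with edgeR, DESeq2 and limma-voom, and 0 at an unadjusted edgeR p under 0.05. No marker gene in the table was at 0 in all samples. Without the embryo block, genes called lower numbered 1 in the enamel knot list, 1 in mesenchyme, 0 in endothelium, 0 in macrophages and 1 in red blood cells, and genes called higher numbered 0 in epithelium, 1 in the enamel knot list and 8 in the hypoxia list.

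**Figure D5:**
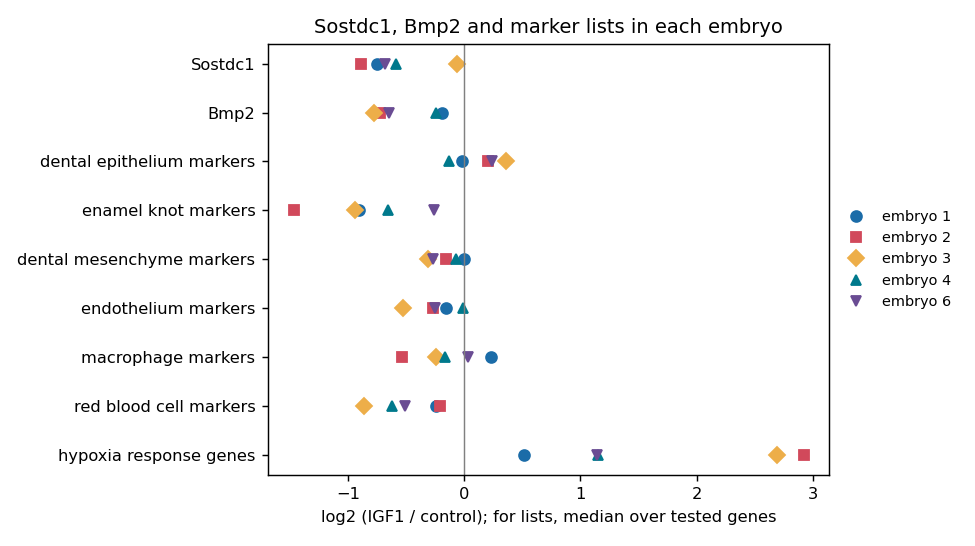
Log2 ratio of the IGF1 tooth to the control tooth (horizontal axis) in each of 5 embryos (coloured marks) for Sostdc1, Bmp2 and the median over the tested genes of each marker list. Sostdc1, Bmp2, the enamel knot, endothelium and red blood cell genes are below 0 in all 5 embryos, and the hypoxia response genes are above 0, from 0.51 to 2.92.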

How the data were processed

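RNA-seq libraries (Ovation Mouse RNAseq System) of 10 single teeth, 5 per group, were analysed. The deposited table holds salmon estimated counts (expected counts) per gene as whole numbers, for 18381 genes with at least 10 counts over all samples. The submitters' processing notes name FastQC 0.11.8, Trimmomatic 0.39, Salmon 0.99.0, DESeq2 and the build GRCm38. The transcript set, the summing to genes and the rounding are not given in the sources used here. Gene positions, biotypes and exon lengths came from GENCODE M21, which held 18287 of the gene IDs, and 94 were not matched.

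Counts were analysed in R 4.3.3 with edgeR 4.0.16 (TMM scaling, filterByExpr by group, quasi-likelihood test, embryo as a block, Benjamini-Hochberg adjustment over 14504 genes). The scripts were run on simulated counts with known changes. These counts held no differences between embryos in single genes, so they cannot check what the embryo block does. The labels pair the teeth by embryo. Deviations from the group means correlated at 0.319, 0.208, -0.0389, 0.170 and 0.313 within embryos 1, 2, 3, 4 and 6, with a median of -0.0462 between embryos. Samples of the same group differed by more than counting noise (chi-square per degree of freedom 4.52 to 18.2). CPM values are TMM-scaled, and per-embryo log2 ratios use a prior count of 2. Intervals are 95% intervals of the edgeR fit. Differences between 9 pairs of genes of the same role were tested over embryos by exact sign-flip permutation, a test added after the values were seen.

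The members, gene lists and tests were chosen with earlier results of these data known. The text names the 10 members, each listed pathway gene past the threshold, the 2 genes of highest mean CPM in each role, and markers whose values stand beside a result. Alternatives were no embryo block, DESeq2 size factors or upper quartile scaling, the DESeq2 1.42.0 Wald test, limma-voom (limma 3.58.1), no filter, at least 10 counts in every sample, a prior count of 0.5, CPM of the total count, and leaving out each embryo. No set test was run. The values of 1 pathway gene past the threshold are not reported here, and it stays in the counts.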

Additional observations from a re-analysis of the deposited data

Results flagged for a closer look

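The control tooth of embryo 6 stood apart from the other control teeth in 2 genes. It held 273 CPM of Sostdc1, against 173 to 201 CPM in the other 4, a gap of 0.724 of the whole range of the group. It also held 152 CPM of Lef1, against 107 to 119 CPM, a gap of 0.731 of the range. Both exceed Dixon's critical value of 0.71 for 5 samples. Such a gap arises by chance in about 1 of 20 groups, which is 3 of the 60 groups of named genes examined, and 2 were found. Without embryo 6 the log2 fold change of Sostdc1 was -0.57 (edgeR adjusted p = 0.0266).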

How the results depend on the processing

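Nog had the fewest reads of the 10 members, and had no value under the filter of at least 10 counts in every sample. With 5 embryos, small changes such as that of Id2 lie near the threshold. Of 119 values of the 10 members under alternatives, 105 kept their direction and call, 7 lost the call, 1 gained it and 6 changed sign; of 240 values of the named pathway genes these were 210, 28, 1 and 1. Without the embryo block, 887 genes were called in place of 1666, members called lower went from 2 to 0, pathway genes lower from 10 to 4, antagonists and modulators lower from 7 to 2 and marker genes lower from 11 to 3, while Sostdc1 was -0.58 (adjusted p = 0.053), Bmp2 -0.55 (0.294) and Bmper 0.0042. With the DESeq2 Wald test 1 member was lower, and Bmp2 was -0.56 (adjusted p = 0.116). Limma-voom gave 0.0080 for Bmper. The 2 alternative scalings kept the calls of the members, and the median over all genes was at most -0.028 from 0. Leaving out 1 embryo at a time gave 986 (without embryo 4) to 1602 genes called, and 994 without embryo 6. Members lower ranged from 1 to 2 (1 without embryo 2, 4 or 6), pathway genes lower from 4 to 9, antagonists and modulators lower from 3 to 7, marker genes lower from 7 (without embryo 4) to 12 and marker genes higher from 8 to 11. In these fits Bmp2 ranged from -0.65 to -0.50 (adjusted p 0.0448 to 0.127, and 0.026 to 0.294 over all alternatives), Sostdc1 from -0.73 to -0.51, Id2 from -0.32 (without embryo 3, adjusted p = 0.0345) to -0.19, Bmpr1a from -0.0041 (without embryo 3) to 0.12, Bmper from -0.12 to 0.11 (0.048 without embryo 1, 0.11 without embryo 3), Id1 from -0.11 to 0.023 (without embryo 4) and Bmpr2 from -0.12 to 0.011 (without embryo 6). The cause of these changes was not tested.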

Other observations

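Among ligand genes too low to be tested, Gdf5, a BMP family ligand known from joint formation, was named after its values were seen. Its control teeth of embryos 1, 2, 3, 4 and 6 were at 0.687, 0.292, 0.472, 0.567 and 0.454 CPM and its IGF1 teeth at 1.44, 1.19, 1.03, 1.27 and 0.999 CPM. Each IGF1 tooth was above each control tooth, on 2 to 10 reads per tooth, a pattern that 4.21% of the tested genes had. Bmp5, also named after its values were seen, was at 6.99 ± 1.45 and 4.16 ± 2.06 CPM (log2 fold change -0.83, SE 0.312, edgeR adjusted p = 0.112), lower in 4 of 5 embryos.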
